A study of Mus musculus with 23 samples.

Results

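Trp53, the mouse gene of the transcription factor p53, and 9 of its best known target genes (Cdkn1a, Mdm2, Ccng1, Pmaip1, Phlda3, Siva1, Bbc3, Bax and Perp) were followed in 23 mouse RNA-seq libraries. They were chosen by gene name, 10 of 53715 genes listed, and all 10 were found once in each of the 3 tables (ES cells, iPS cells and embryos) and passed the filter on low values in every comparison. The study asked, among other things, whether p53 signalling changes in pluripotent cells that lack LIN28, the RNA-binding proteins that hold back maturation of the let-7 microRNAs. Abundance is given as TPM, a measure that divides reads by transcript length and scales every library to the same total, so that levels of different genes can be set side by side.

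The 15 embryonic stem (ES) cell libraries, from cells that derive from the inner cell mass, fell into 5 groups of 3: Lin28a-null cells, whose label names a Lin28a knockout, cells labelled as Lin28b knockout and here called labelled Lin28b-null, ilet7 cells with Doxycycline for 3 days, ilet7 control cells, and wild-type cells. In ilet7 cells doxycycline switches on let-7, and no line without this cassette was given the drug, so that the drug and let-7 cannot be told apart. The 6 induced pluripotent stem (iPS) cell libraries, reprogrammed from embryonic fibroblasts (MEF), were 3 labelled Lin28a/b double knockout and 3 wild type. Each of 2 embryo libraries was a pool of C57BL/6J embryos, one from zygotes injected with siRNA against Lin28a (siLin28) and one control. The treatment label names a knockdown for both pools, and their titles alone set siLin28 apart from wild type, here called the control. All cells had grown on MEF feeders with LIF and 2 kinase inhibitors (2i), and the feeders were depleted before RNA was taken. The study describes Lin28a knockout clones made by CRISPR and ES cells from knockout mice, but the labels do not say which these libraries are or whether a line was a single clone. Nothing says that the libraries of a group came from separate cultures, so p-values measure the spread between libraries, which may be technical.

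p53 is a tetramer that binds pairs of a degenerate decamer near its target genes and activates genes that stop the cell cycle, lead to apoptosis or restrain p53 itself. Its amount is set mainly by how fast the protein is degraded, chiefly through the ubiquitin ligase MDM2, so the level of its mRNA does not report its activity. Mouse ES cells hold abundant p53 and are known to have a weak arrest in G1 phase after DNA damage, and p53 there also limits the expression of Nanog.

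Promoter sequence is shown for the 3 members, of 8 searched, in which it holds a close match to the p53 binding pattern. Pmaip1 and Perp were left out of this search, so the counts below do not cover them. For the other 8 of the 10 genes, RefSeq (GRCm38.p6) gave windows of 250 bases before and 50 bases after the transcription start. These were searched on both strands for the p53 decamer, the degenerate sequence named above, and for pairs of it that do not overlap and lie at most 13 bases apart. A pair with at most 1 mismatch was present for Cdkn1a, Ccng1 and Bax, beside 1.09% of 32851 windows of all genes, and 6 of the 8 genes held a decamer with no mismatch, beside 8.36% of windows. The bases before the annotated start are printed 5′ to 3′ on the gene's strand, with the decamers of such pairs in capitals. Each stretch ends just before the earlier of the RefSeq start and the GENCODE M21 gene start, and positions below are counted back from that end. The Cdkn1a stretch covers chr17:29090729-29090975 (plus strand), the Ccng1 stretch chr11:40755312-40755536 (minus strand) and the Bax stretch chr7:45466899-45467148 (minus strand).
Cdkn1a: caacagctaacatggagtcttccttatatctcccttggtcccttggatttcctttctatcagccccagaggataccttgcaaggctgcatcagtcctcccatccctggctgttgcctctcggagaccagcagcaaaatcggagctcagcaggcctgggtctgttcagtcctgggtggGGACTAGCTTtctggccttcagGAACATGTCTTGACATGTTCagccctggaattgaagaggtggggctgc
Ccng1: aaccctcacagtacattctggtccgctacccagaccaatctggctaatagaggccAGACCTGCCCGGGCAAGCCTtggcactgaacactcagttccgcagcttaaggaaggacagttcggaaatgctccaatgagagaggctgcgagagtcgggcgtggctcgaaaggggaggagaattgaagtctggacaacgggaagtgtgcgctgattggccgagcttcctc
Bax: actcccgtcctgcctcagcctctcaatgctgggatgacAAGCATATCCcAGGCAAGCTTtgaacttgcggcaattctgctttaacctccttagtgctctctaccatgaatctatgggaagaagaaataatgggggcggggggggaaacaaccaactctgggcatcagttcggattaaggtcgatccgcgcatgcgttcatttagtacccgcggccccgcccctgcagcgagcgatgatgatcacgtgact

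The window of Cdkn1a printed here was one of 24 windows (0.0731%) with a pair that had no mismatch. Its 3 capitalised decamers lay from 70 to 29 bases before that start. The pair of Ccng1 lay 170 to 151 bases before its start, counted in the same way, and that of Bax 212 to 192 bases before it, each with 1 mismatch. The best pair of Siva1 had 2 mismatches, and those of Trp53, Mdm2, Phlda3 and Bbc3 had at least 3 in these windows. Cdkn1a had a second window, at another RefSeq start (chr17:29093519-29093818). It held 0 decamers without a mismatch, and its best pair had 5 mismatches. A match of letters is a description, not a binding site, and p53 is also known to bind in introns, as at Mdm2 and Bbc3, outside the windows searched.

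The labels were checked first. Lin28a was at 14.6 to 20.96 TPM in Lin28a-null ES libraries, against 31.5 to 61.2 TPM in wild-type ones, and at 3.03 TPM in the siLin28 pool against 15.9 TPM in the control pool. Lin28a averaged 10.6 ± 1.06 TPM in iPS libraries labelled double knockout and 25.6 ± 10.1 TPM in wild-type ones, and 6.84 ± 0.539 TPM with doxycycline and 22.98 ± 2.32 TPM in ilet7 controls (SD, n = 3 each), with no overlap in either pair. Lin28b mRNA went against its label: it averaged 12.97 ± 0.727 TPM in ES libraries labelled Lin28b-null and 4.50 ± 0.791 TPM in wild-type ones, and 10.7 ± 0.727 TPM in iPS libraries labelled double knockout and 2.82 ± 1.14 TPM in wild-type ones (SD, n = 3 each). Which part of Lin28b was deleted is not given in the labels, and a gene-level value also counts a transcript that keeps its other exons. All 10 pluripotency markers listed reached a mean of 1 TPM in each of the 7 cell groups. Wild-type ES replicate 2 stood apart: the summed TPM of 20 fibroblast and feeder genes was 3821 in it, against 2056 and 2228 in the other two, and it was the highest of the 3 for 8 of the 10 genes studied here. Results against wild-type ES cells are therefore also given without it where they change. The same sum ran from 4998 to 6620 in Lin28a-null ES libraries and from 3463 to 7081 in iPS libraries.

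In 4 comparisons a group labelled as lacking LIN28 or given doxycycline was set against its own control. Ccng1 and Bax changed in none of them. A change means an adjusted p under 0.05 in limma, fitted to log2(TPM + 1) over all genes. In Lin28a-null ES cells 3 of 10 rose (Cdkn1a, Pmaip1 and Perp) and 0 fell, beside 20.4% of 16060 genes that rose and 17.8% that fell. Without wild-type replicate 2, 6 rose, with Mdm2, Ccng1 and Phlda3 added, beside 3860 of 16009 genes that rose and 2978 that fell. In ES cells labelled Lin28b-null 3 rose (Trp53, Pmaip1 and Phlda3) and 0 fell, beside 13.4% and 15.1% of 15526 genes. Under doxycycline 4 fell (Mdm2, Phlda3, Siva1 and Bbc3) and 0 rose, beside 5.68% of 15884 genes that fell and 13.3% that rose. In iPS cells labelled double knockout 3 fell (Phlda3, Siva1 and Perp) and 0 rose, beside 7.51% of 17557 genes that fell and 8.77% that rose. At an unadjusted p under 0.05 in limma, the counts higher and lower were 4 and 1 in Lin28a-null, 3 and 0 in labelled Lin28b-null, 1 and 5 in doxycycline-treated and 1 and 3 in labelled double knockout cells. The share of all genes at an unadjusted p was not counted, here or for the unadjusted counts below. Libraries of the compared groups did not overlap, in either direction, for 6 of the 10 genes in Lin28a-null cells (53.2% of all genes), 3 in labelled Lin28b-null cells (46.3%), 6 with doxycycline (41%) and 3 in labelled double knockout cells (37.9%). After quantile normalization the calls over all genes turned to 2988 higher and 3526 lower in Lin28a-null cells, against 3283 and 2854 with TPM as deposited, and to 1364 and 1632 in labelled double knockout cells, against 1540 and 1318. Phlda3 and Perp rose in one comparison and fell in another. In RNA from whole cultures, fewer cells that express a gene and less of its RNA per cell cannot be told apart.

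**Figure D1:**
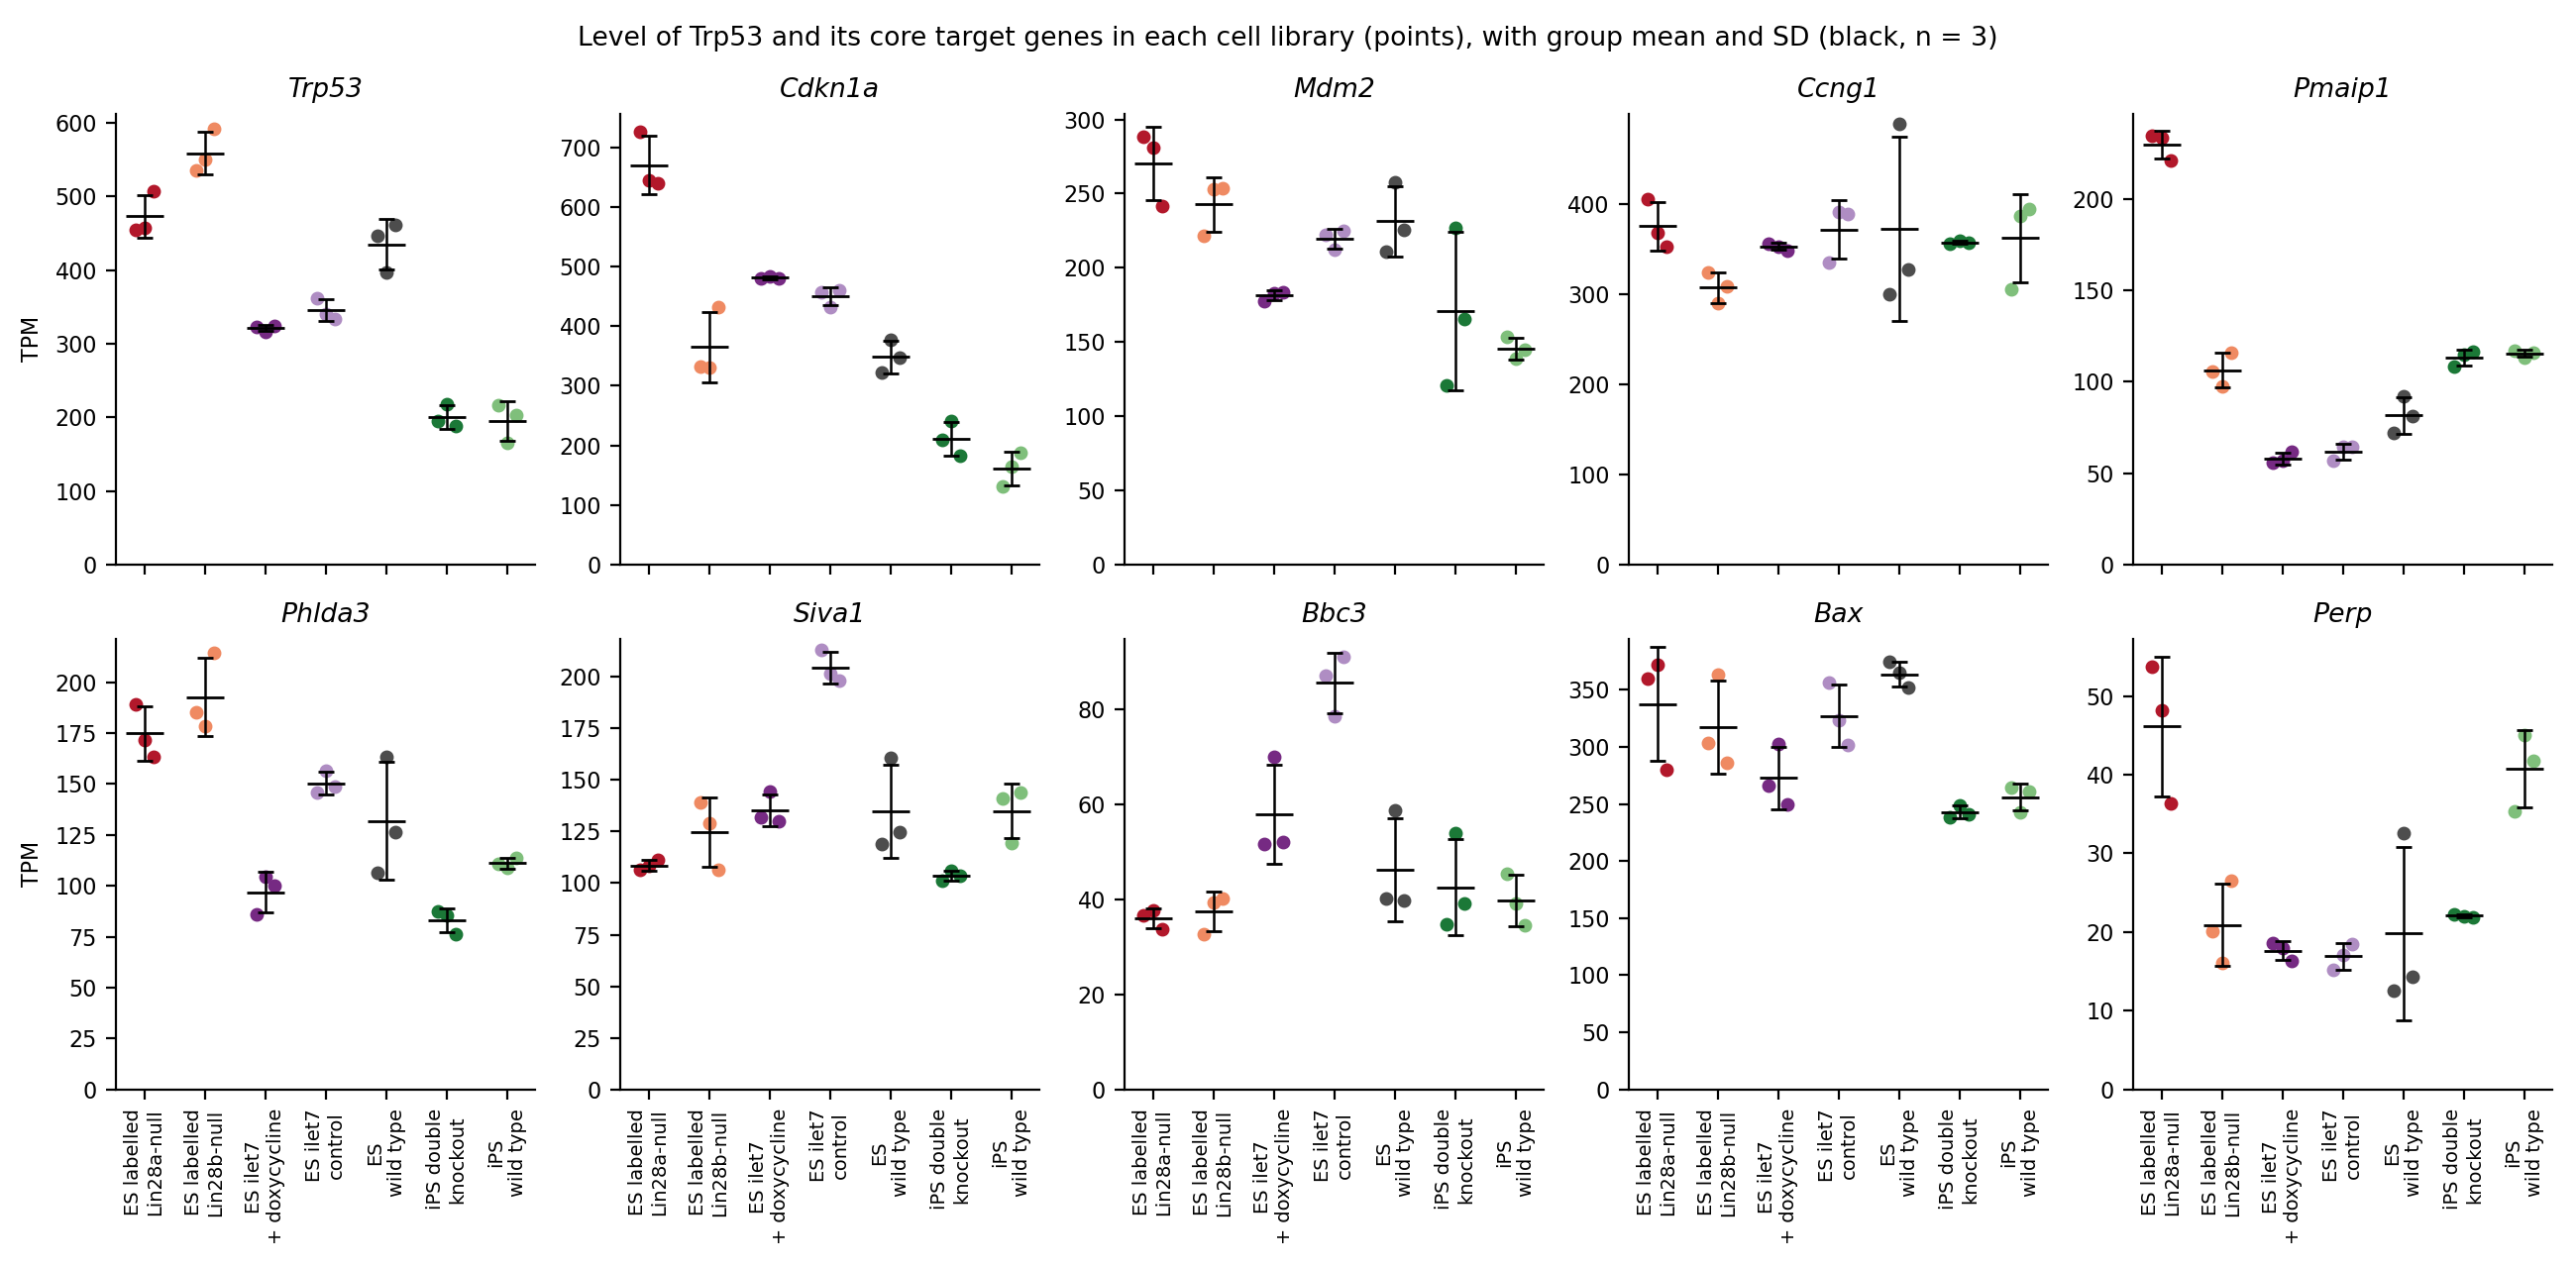
Level in TPM (vertical axis, from 0) of Trp53 and its 9 target genes in the 21 cell libraries, by group; points are libraries, black bars the mean and SD of 3. Cdkn1a and Pmaip1 are highest in the 3 Lin28a-null ES libraries, with no overlap with any other group, and Siva1 and Bbc3 are highest in the ilet7 control libraries.

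The level of Trp53 mRNA was highest in ES cells labelled Lin28b-null. It was 455, 458 and 507 TPM in Lin28a-null, 536, 550.1 and 592 TPM in labelled Lin28b-null and 447, 396 and 462 TPM in wild-type ES libraries. With doxycycline it was 323, 316 and 325 TPM, against 362, 341 and 333 TPM in ilet7 controls. In iPS cells it was 195, 219 and 188 TPM in libraries labelled double knockout, against 217, 165 and 203 TPM in wild-type ones. All labelled Lin28b-null libraries lay above all wild-type ones, a rise of 1.28-fold (log2 change +0.36 ± 0.08 SE, adjusted p = 0.0141), and this call was kept in all 15 alternative fits. The Lin28a-null libraries overlapped wild type (+0.12 ± 0.08, adjusted p = 0.264) and lay below the labelled Lin28b-null ones (-0.24 ± 0.06, adjusted p = 0.0186, but 0.0634 without Lin28a-null replicate 1, 0.069 without replicate 2 and 0.0619 without the variance trend). All 3 doxycycline libraries lay below the 3 controls, a difference of -0.10 ± 0.04 that did not pass (adjusted p = 0.144), and the iPS groups overlapped (+0.05 ± 0.12, adjusted p = 0.821). The ilet7 control cells lay below wild-type ES cells (-0.33 ± 0.07, adjusted p = 0.0254), a call that among the fits without 1 library was kept only without wild-type replicate 2 (adjusted p = 0.0547 to 0.095 without each of the others). In the order of the group means (559, 473, 435, 346, 322, 201 and 195 TPM), Lin28a-null and wild-type ES libraries overlapped, as did both iPS groups, and the other neighbours did not. Trp53 spans chr11:69580359-69591873 (GRCm38, GENCODE M21), and its pseudogene Trp53-ps, which could share reads, did not exceed 3.28 TPM in any library.

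Cdkn1a encodes p21, the inhibitor of cyclin-dependent kinases through which p53 stops the cell cycle. It was at 726, 644 and 639 TPM in Lin28a-null, 332, 329.9 and 433 TPM in labelled Lin28b-null and 322, 377 and 346 TPM in wild-type ES libraries. The lowest Lin28a-null library lay far above the highest wild-type one, while the labelled Lin28b-null libraries overlapped wild type. Cdkn1a thus averaged 669.8 ± 49.1 TPM in Lin28a-null and 348 ± 27.4 TPM in wild-type cells (SD, n = 3 each), a rise of 1.92-fold (log2 change +0.94 ± 0.08 SE, adjusted p = 0.00036) that was kept in all 15 alternatives. The change in labelled Lin28b-null cells was +0.06 ± 0.12 (adjusted p = 0.759), with a 95% interval from -0.22 to 0.34. Set directly against each other, Lin28a-null cells held 1.84 times the Cdkn1a of labelled Lin28b-null cells (adjusted p = 0.00109). Doxycycline libraries were at 480.5, 483 and 479 TPM, against 456, 432 and 459.5 TPM in ilet7 controls. All 3 lay above all 3 controls, but the difference was small and did not pass (+0.10 ± 0.04, adjusted p = 0.115). The ilet7 controls themselves lay above wild-type ES cells (+0.37 ± 0.07, adjusted p = 0.0156, but 0.0554 to 0.0658 without control replicate 1 or 3 or wild-type replicate 3). In iPS libraries Cdkn1a was at 209.8, 239.9 and 183 TPM in those labelled double knockout, against 130.4, 164 and 188 TPM in wild-type ones, with overlap (+0.40 ± 0.15, adjusted p = 0.129). Over the 7 cell groups Cdkn1a had the widest span of the 10 genes, 4.17-fold from Lin28a-null ES to wild-type iPS cells. That span crosses from ES to iPS cells. Among the ES groups alone Cdkn1a spanned 1.92-fold, less than Pmaip1 at 3.96-fold, from Lin28a-null to doxycycline-treated cells. The gene (chr17:29090976-29100727) overlaps the gene model AC167363.2 on the opposite strand, and whether counting used strand is not stated, so their reads cannot be told apart.

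Mdm2, Ccng1 and Phlda3 act back on p53 or hold back survival signalling. Mdm2 encodes the ubiquitin ligase that both answers to p53 and marks it for degradation. It was at 288, 281 and 242 TPM in Lin28a-null, 222, 253 and 253 TPM in labelled Lin28b-null and 211, 258 and 226 TPM in wild-type ES libraries. These groups overlapped, and neither difference passed (Lin28a-null +0.22 ± 0.10, adjusted p = 0.119; labelled Lin28b-null +0.07 ± 0.10, adjusted p = 0.626). Without wild-type replicate 2 the Lin28a-null difference was +0.30 and passed (adjusted p = 0.0347). With doxycycline Mdm2 was at 178, 183 and 184 TPM, against 222, 212 and 225 TPM in controls. The doxycycline libraries all lay below the controls, a fall to 0.825 of the control level (-0.28 ± 0.04, adjusted p = 0.00702) that was kept in all 15 alternatives. In iPS libraries labelled double knockout Mdm2 was at 121, 227 and 165 TPM, against 153, 139 and 145 TPM in wild-type ones, so that the spread within the first group was wider than the difference (+0.19 ± 0.21, adjusted p = 0.587). Ccng1, which encodes cyclin G1, a partner of the phosphatase PP2A that acts back on MDM2, was the steadiest of the 10, with group means between 307 and 375 TPM. It rose in Lin28a-null relative to labelled Lin28b-null cells (+0.29 ± 0.07, adjusted p = 0.0142), and no difference of it passed in the 4 comparisons with a control, though the doxycycline one did without control replicate 1 (-0.15, adjusted p = 0.0496). Its 3 wild-type ES values were 299, 489 and 328 TPM, and without the middle one, replicate 2, the Lin28a-null difference was +0.26 (adjusted p = 0.0384), against +0.04 with it.

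Phlda3 encodes a small pleckstrin-homology protein that keeps the survival kinase AKT from the membrane. It was at 189, 172 and 164 TPM in Lin28a-null, 185, 178 and 215 TPM in labelled Lin28b-null and 106, 163 and 126 TPM in wild-type ES libraries. Both null groups lay wholly above wild type, with replicate 2 the nearest wild-type library in each case. The rise passed in labelled Lin28b-null cells (+0.56 ± 0.16, adjusted p = 0.035) and not in Lin28a-null cells (+0.42 ± 0.15, adjusted p = 0.0639), and the null groups did not differ from each other past the threshold (-0.14 ± 0.09, adjusted p = 0.244). Among the fits without 1 library the labelled Lin28b-null call was kept only without wild-type replicate 2 (adjusted p = 0.0643 to 0.101 without each of the others), and the Lin28a-null difference passed after median-of-ratios scaling (adjusted p = 0.0432) and when wild-type replicate 2 was left out (+0.59, adjusted p = 0.00502). In ilet7 control against wild-type ES cells Phlda3 differed by +0.21 (adjusted p = 0.36), and by +0.37 without wild-type replicate 2, where it passed (adjusted p = 0.0247). With doxycycline Phlda3 was at 85.8, 105 and 100.2 TPM, against 146, 156 and 149 TPM in controls. In iPS libraries it was at 87.6, 85.4 and 76.3 TPM in those labelled double knockout, against 111, 109 and 114 TPM in wild-type ones. Both of these were falls with no overlap, to 0.645 of the control level with doxycycline (-0.63 ± 0.08, adjusted p = 0.00381) and to 0.748 of wild type in the iPS cells (-0.42 ± 0.08, adjusted p = 0.0156). The fall with doxycycline was kept in all 15 alternatives and the fall in iPS cells in 12 of 14, with an adjusted p of 0.0524 without wild-type iPS replicate 3.

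**Figure D2:**
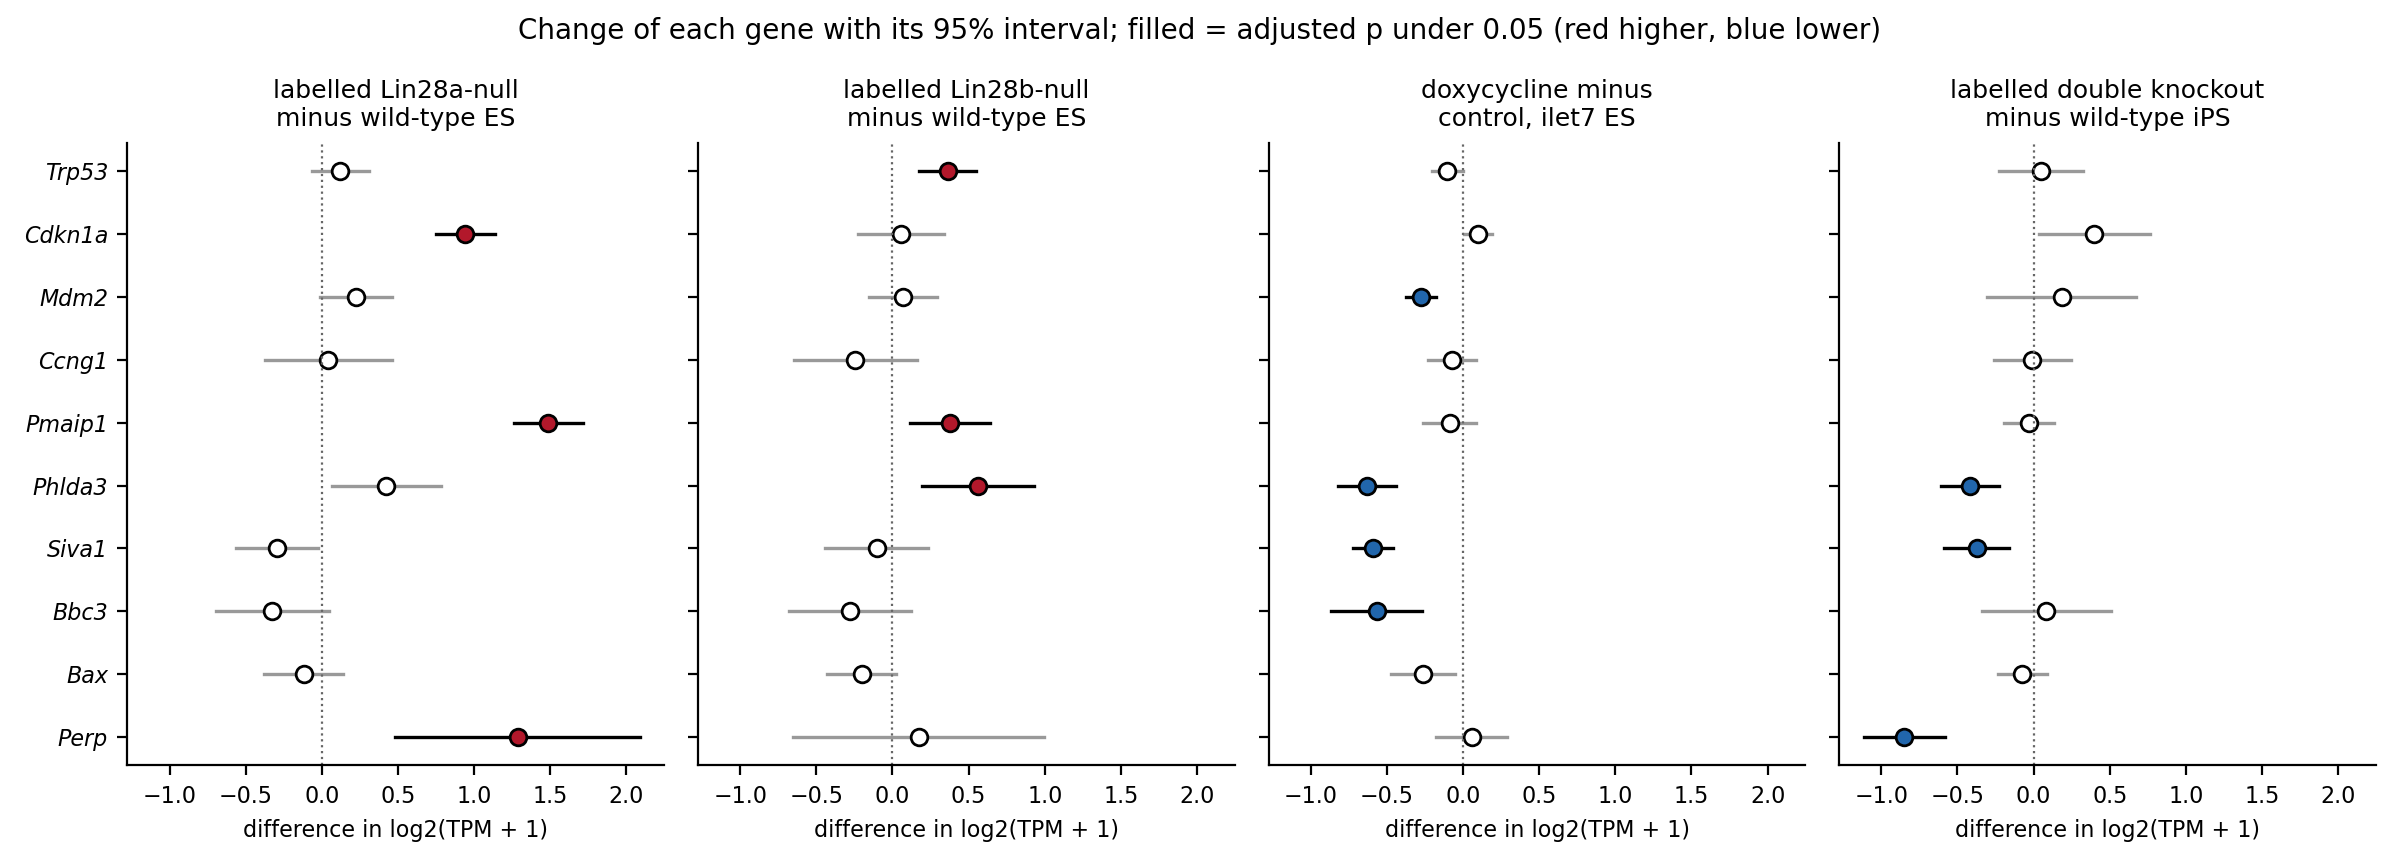
Difference in log2(TPM + 1) of each of the 10 genes (horizontal axis) in the 4 comparisons with a control, with 95% intervals from limma; filled points passed at an adjusted p under 0.05, red where higher and blue where lower in the null, doxycycline or labelled double knockout libraries. Filled points lie to the right in both ES null panels and to the left in the doxycycline and iPS panels.

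Of the genes that lead to cell death, Pmaip1 encodes NOXA, a BH3-only protein that ties up the survival factor MCL1. Its level was 235, 234 and 221 TPM in Lin28a-null, 105, 97.5 and 116 TPM in labelled Lin28b-null and 71.96, 92.00 and 81.2 TPM in wild-type ES libraries. The 3 groups did not overlap, and Lin28a-null cells averaged 229.9 ± 7.79 TPM, against 81.7 ± 10.03 TPM in wild-type cells (SD, n = 3 each). This was a rise of 2.81-fold (log2 change +1.49 ± 0.10 SE, adjusted p = 0.000107), kept in all 15 alternatives. Labelled Lin28b-null cells rose by 1.301-fold (+0.38 ± 0.11, adjusted p = 0.0426), a call kept only without wild-type replicate 2 among the fits without 1 library (adjusted p = 0.0599 to 0.117 without each of the others), and the Lin28a-null level was 2.16 times theirs (adjusted p = 8.65e-05). Doxycycline libraries were at 55.95, 56.6 and 61.7 TPM, against 56.7, 64.3 and 64.5 TPM in controls. Libraries labelled double knockout were at 109, 115 and 117 TPM, against 117, 113 and 116 TPM in wild-type iPS cells. Neither pair was apart: the differences were -0.09 (95% interval -0.26 to 0.08, adjusted p = 0.433) and -0.03 (-0.19 to 0.14, adjusted p = 0.813). The ilet7 controls lay below wild-type ES cells (-0.39 ± 0.11, adjusted p = 0.0471), a call kept in 1 of 6 fits without 1 library, that without wild-type replicate 1.

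Perp encodes a membrane protein of the PMP22 family that p53 switches on in dying cells and that also serves in the desmosomes of epithelia. It was at 53.8, 48.2 and 36.4 TPM in Lin28a-null, 20.2, 16.1 and 26.5 TPM in labelled Lin28b-null and 12.6, 32.5 and 14.3 TPM in wild-type ES libraries. Wild-type replicate 2, at 32.5 TPM, was far above the other wild-type libraries and close to the lowest Lin28a-null library. The Lin28a-null rise was 2.33-fold with a wide interval (+1.28, 95% interval 0.48 to 2.09, adjusted p = 0.0232). It did not pass without Lin28a-null replicate 1 or 2 or wild-type replicate 1 or 3 (adjusted p = 0.067 to 0.0805), and without wild-type replicate 2 it was +1.69 (adjusted p = 0.000882). Perp in labelled Lin28b-null cells overlapped wild type (+0.17, adjusted p = 0.751), and Lin28a-null cells lay above them (+1.11 ± 0.21, adjusted p = 0.00488). The opposite was seen in iPS cells, with 22.3, 22.1 and 21.9 TPM in libraries labelled double knockout, against 35.4, 45.04 and 41.8 TPM in wild-type ones. Perp fell there to 0.542 of the wild-type level with no overlap (-0.85 ± 0.11, adjusted p = 0.0037), in all 14 alternatives. Sums of 7 trophectoderm genes, markers of the first embryonic epithelium, were 50.7 to 57.4 TPM in the libraries labelled double knockout, against 115 to 123 TPM in wild-type iPS ones, and of the 5 tested 4 fell and Eomes rose (+0.71). Their part in the Perp fall was not tested. With doxycycline Perp was at 18.6, 17.99 and 16.3 TPM, against 15.2, 17.1 and 18.5 TPM in controls (+0.06 ± 0.10, adjusted p = 0.721), and this sign turned under both other scalings.

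Siva1 and Bbc3 shared a pattern: both were highest in the ilet7 control cells and fell with doxycycline. Siva1, a pro-apoptotic adaptor that binds death receptors of the TNF receptor family, was at 132, 144 and 130.0 TPM with doxycycline, against 213, 202 and 198 TPM in controls. Bbc3, which encodes the BH3-only protein PUMA, was at 51.7, 69.8 and 51.98 TPM with doxycycline, against 87.1, 78.5 and 90.9 TPM in controls. Doxycycline libraries lay wholly below controls for both, at 0.663 of the control level for Siva1 (-0.59 ± 0.06, adjusted p = 0.00151) and 0.677 for Bbc3 (-0.57 ± 0.13, adjusted p = 0.0244). The Siva1 fall was kept in all 15 alternatives and that of Bbc3 in 9, and Bbc3 did not pass without doxycycline replicate 1 or 3 or control replicate 1 or 3 (adjusted p = 0.0703 to 0.0796). The ilet7 control cells differed from wild-type ES cells in the other direction, by +0.61 for Siva1 (adjusted p = 0.0146, and 0.0531 to 0.0587 without control replicate 1 or 2 or wild-type replicate 3) and +0.90 for Bbc3 (adjusted p = 0.0113), so that doxycycline-treated libraries overlapped those of wild type, where Siva1 was at 119, 160.5 and 125 TPM and Bbc3 at 40.04, 58.6 and 39.7 TPM. In Lin28a-null ES libraries Siva1 was at 106, 108 and 111 TPM and Bbc3 at 36.7, 37.7 and 33.6 TPM. Both lay wholly below wild type, and neither passed (-0.29, adjusted p = 0.0827, and -0.33, adjusted p = 0.145). Siva1 did pass in the limma fit of all ES libraries together (adjusted p = 0.0397). Labelled Lin28b-null libraries ranged from 106 to 139 TPM for Siva1 and from 32.7 to 40.2 TPM for Bbc3, with overlap. In iPS cells Siva1 was at 101, 106 and 104 TPM in libraries labelled double knockout, against 141, 119.6 and 144 TPM in wild-type ones. That fall passed (-0.37 ± 0.09, adjusted p = 0.0336) but among the fits without 1 library only without wild-type replicate 2 (adjusted p = 0.0738 to 0.101 without each of the others), and it did not pass without the filter on low values (0.0557), without the variance trend (0.0779) or with a replicate block (0.0782). Bbc3 overlapped there (+0.08 ± 0.18, adjusted p = 0.792).

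Bax, the protein that opens the outer mitochondrial membrane downstream of NOXA and PUMA, kept its level most closely after Ccng1, with group means from 243 to 364 TPM. Its libraries overlapped in each of the 6 comparisons. With doxycycline Bax was at 266, 303 and 249 TPM, against 356, 324 and 302 TPM in controls, the largest of its differences (-0.26 ± 0.09, adjusted p = 0.0836), which passed without doxycycline replicate 2 (-0.34, adjusted p = 0.0434). The other 3 were -0.12 in Lin28a-null, -0.20 in labelled Lin28b-null and -0.07 in labelled double knockout cells (adjusted p = 0.43, 0.157 and 0.513), and the labelled Lin28b-null one passed without its replicate 2 (-0.30, adjusted p = 0.0414). Bax (chr7:45461697-45466898) overlaps the model Gm45808 on the same strand, so reads of the 2 genes may have been split between them.

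The effects of let-7 induction and of Lin28a loss share no library and were compared directly. The doxycycline effect lay below the Lin28a-null effect for 5 of the 10 genes and above it for 0. This stood beside 12.1% of 16085 genes lower and 16.2% higher. At an unadjusted p under 0.05 in limma the doxycycline effect lay below for 6 and above for 0, a cutoff at which all genes were not counted. The 5 were Pmaip1 (-1.58 ± 0.12 SE, adjusted p = 8.84e-06), Perp (-1.23 ± 0.39, adjusted p = 0.0373), Phlda3 (-1.06 ± 0.19, adjusted p = 0.00176), Cdkn1a (-0.84 ± 0.09, adjusted p = 8.4e-05) and Mdm2 (-0.50 ± 0.11, adjusted p = 0.00716). Siva1 and Bbc3, which were lower in both, did not differ between the effects past the threshold (-0.30, 95% interval -0.59 to 0.00, and -0.24, -0.72 to 0.24), though Siva1 did without wild-type replicate 2 (-0.43, adjusted p = 0.00202) and after median-of-ratios scaling (adjusted p = 0.0479), and so did Ccng1 without that library (-0.33, adjusted p = 0.0387). All but Perp passed in all 20 alternatives, and Perp in 9 of them and in 2 of 12 fits without 1 library, those without Lin28a-null replicate 3 and without wild-type replicate 2 (adjusted p = 0.0517 to 0.0859 without each of the others). Over all genes, doxycycline calls split into 2118 higher and 903 lower with TPM as deposited, 1489 and 1299 after quantile normalization and 1669 and 1423 after median-of-ratios scaling, and the 4 falls named here passed under both.

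**Figure D3:**
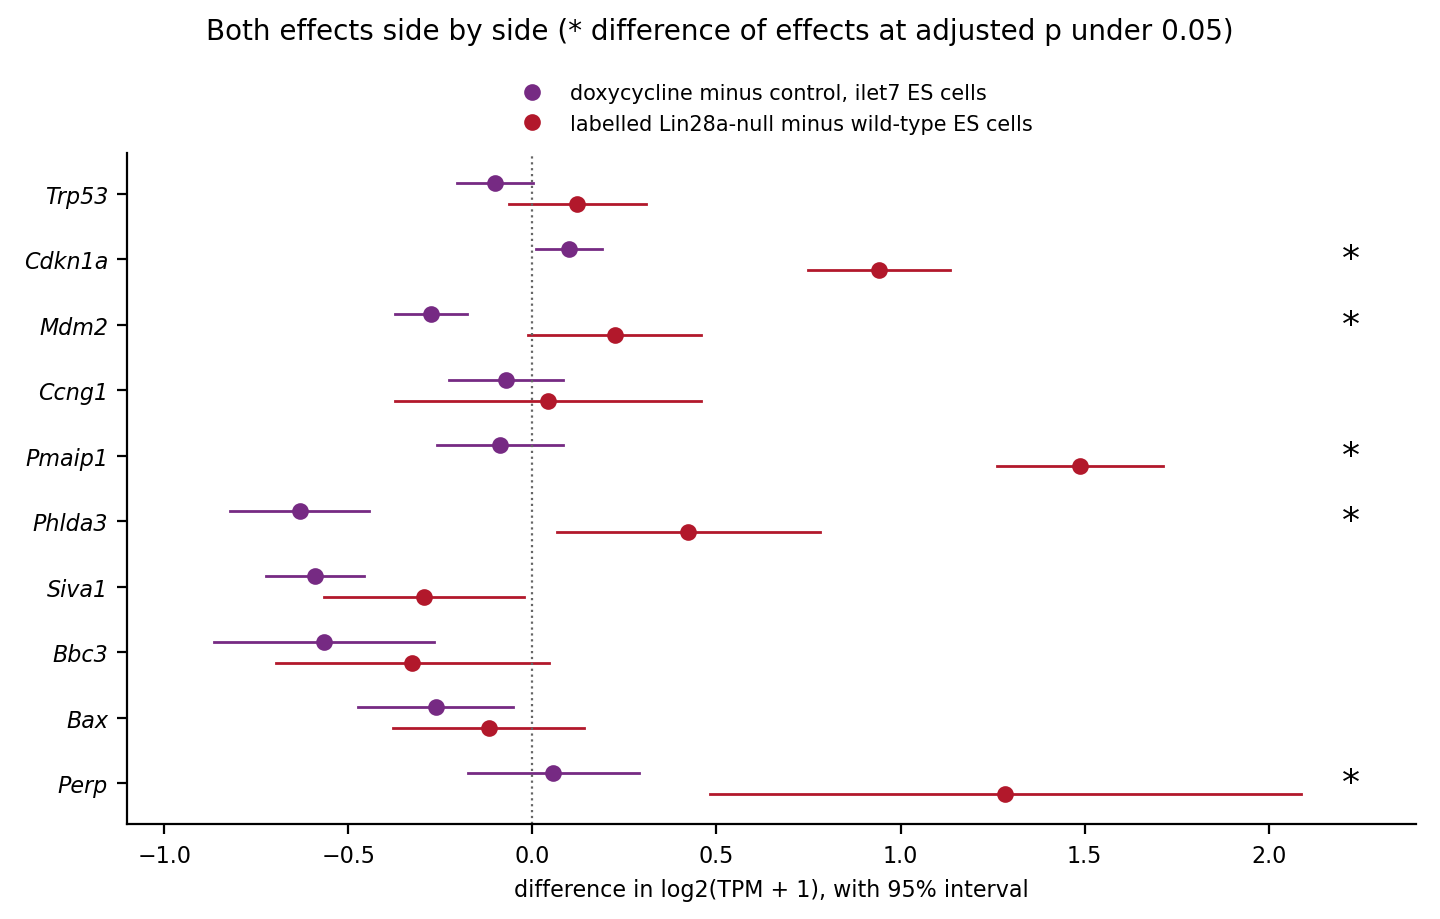
Difference in log2(TPM + 1) with its 95% interval (horizontal axis) for doxycycline against control in ilet7 ES cells (purple) and Lin28a-null against wild-type ES cells (red); an asterisk marks genes whose effects differ at an adjusted p under 0.05. The 5 marked genes are Cdkn1a, Mdm2, Pmaip1, Phlda3 and Perp, and the purple point lies to the left of the red one for each.

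The wild-type ES libraries are shared by 3 comparisons, so that their values are only set side by side. In the direct comparison of Lin28a-null with labelled Lin28b-null cells, which needs no wild-type library, 4 of 10 genes rose (Cdkn1a, Ccng1, Pmaip1 and Perp) and Trp53 fell, beside 25.8% of 15974 genes higher and 21.1% lower. Siva1, at -0.19 there, passed only without labelled Lin28b-null replicate 3 (-0.30, adjusted p = 0.00702), and the Ccng1 call was lost in the fit of all ES libraries together (adjusted p = 0.1). Over all genes that comparison split into 4115 higher and 3369 lower as deposited, and into 3528 and 4340 after quantile normalization. In ilet7 control against wild-type ES cells 3 genes rose (Cdkn1a, Siva1 and Bbc3) and 2 fell (Trp53 and Pmaip1), beside 9.18% and 8.46% of 15693 genes. Without wild-type replicate 2 Phlda3 was added and Pmaip1 lost (adjusted p = 0.0541). The largest difference between these control groups was 1.85-fold, for Bbc3.

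Markers of fibroblasts also differed between groups, not always in the direction of these genes. In Lin28a-null ES cells 18 of the 20 fibroblast and feeder genes rose and 0 fell (0 also at an unadjusted p in limma), with a median log2 change of 1.70, and the marker sums (4998 to 6620 TPM) lay wholly above those of wild type (2056 to 3821 TPM). With doxycycline the sums were 2275 to 2530 TPM, against 2029 to 2228 TPM in controls, and 8 of 18 tested markers rose and 0 fell, also at an unadjusted p. In iPS libraries labelled double knockout they were 5037 to 7081 TPM, against 3463 to 5638 TPM in wild-type ones, with overlap, and 3 of 20 rose. Labelled Lin28b-null libraries (2346 to 3332 TPM) overlapped wild type, with 1 marker up and 2 down. In Lin28a-null against labelled Lin28b-null cells 19 of 20 rose, and in ilet7 control against wild-type cells 9 of 19 fell (median -0.99) and 0 rose. Within the 7 cell groups, the library with the highest marker sum was also the highest of its group for Ccng1 in 6 groups, for Cdkn1a and Phlda3 in 5, for Mdm2 and Perp in 4, for Pmaip1, Siva1 and Bbc3 in 3, for Trp53 in 2 and for Bax in 1. How often such a match occurs over all genes was not counted. The part of fibroblasts in the differences was not tested.

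**Figure D4:**
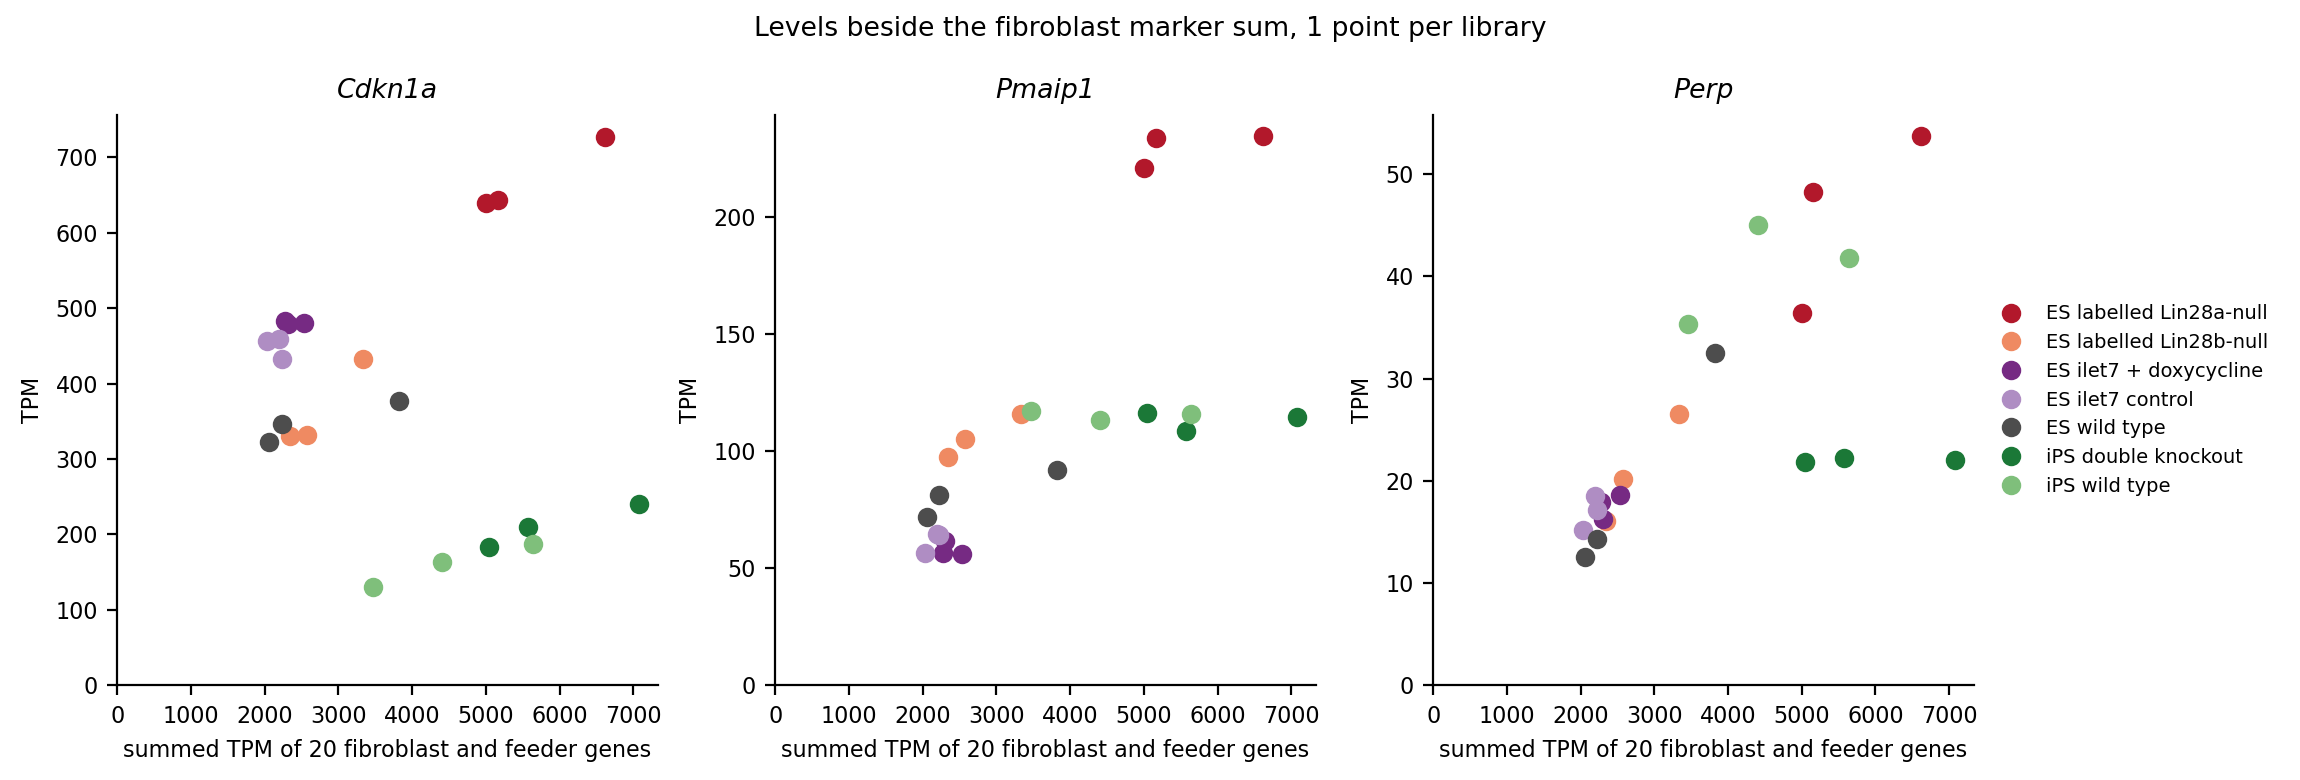
Level in TPM of Cdkn1a, Pmaip1 and Perp (vertical axes) against the summed TPM of 20 fibroblast and feeder genes (horizontal axis), 1 point per cell library, coloured by group. The 3 Lin28a-null ES points lie at sums of 4998 to 6620 TPM and have the highest Cdkn1a and Pmaip1 of the cell libraries.

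The members did not vary as one block over the 15 ES libraries of 5 groups. These correlations of log2(TPM + 1) are descriptions across libraries that share groups, with no test. The closest pairs were Siva1 with Bbc3 (Pearson r = 0.887), Pmaip1 with Perp (0.868) and Mdm2 with Phlda3 (0.848). Trp53 mRNA ran with Phlda3 (r = 0.700), Mdm2 (0.665) and Pmaip1 (0.650), against Bbc3 (-0.794), Siva1 (-0.605) and Ccng1 (-0.443), and had values nearer 0 with Cdkn1a (-0.162), Bax (0.285) and Perp (0.309). Among 12008 genes that averaged 5 TPM or more in ES libraries, the 5 most like Cdkn1a were Ier5 (r = 0.986), Tdg (0.969), Tcp11l2 (0.962), Hspa1b (0.958) and P4ha2 (0.957). Ier5, an immediate early response gene, averaged 23.3 TPM in Lin28a-null, 5.45 TPM in labelled Lin28b-null and 5.81 TPM in wild-type ES cells. Tdg, a DNA glycosylase of base excision repair, averaged 56.6, 20.9 and 19.3 TPM in the same 3 groups. The genes most like Trp53 were Ppm1g (r = 0.975), Psmc2 (0.974), Rrp15 (0.972), Psma4 (0.970) and Zwint (0.969), of which Psmc2 and Psma4 encode subunits of the proteasome.

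The genes that control p53 were described from a list of 25, of which 24 were tested in each cell comparison. In Lin28a-null ES cells 5 rose and 5 fell, beside 20.4% and 17.8% of all genes, with a median log2 change of -0.03, beside 0.02 over all genes. Cdkn2a, whose Arf product shields p53 from MDM2, was at 56.8 TPM in Lin28a-null and 95.3 TPM in wild-type cells (-0.74 ± 0.07, adjusted p = 0.000471), and it was also lower in labelled Lin28b-null cells, at 61.2 TPM (-0.63 ± 0.08, adjusted p = 0.00136). The wild-type libraries are the same in both comparisons. The p53 relative Trp73 (-1.27) and the nucleolar assembly factor Nop53 (-0.29) also fell in Lin28a-null cells, and the acetyltransferase Crebbp (+0.74), the DNA damage kinase Atm (+0.60) and the deacetylase Sirt1 (+0.40), which acts on p53, rose. For labelled Lin28b-null cells 1 gene rose, the p53 phosphatase Ppm1d (+0.64), and 2 fell, Cdkn2a and the ubiquitin ligase Cop1 (-0.86), beside 13.4% and 15.1% of all genes. Under doxycycline 0 rose and 4 fell, beside 13.3% and 5.68% of all genes, led by Ppp1r13l, an inhibitor of p53 (-0.32), Nop53 (-0.20) and nucleophosmin Npm1 (-0.17). At an unadjusted p under 0.05 in limma 2 were higher and 8 lower, without a count over all genes. In iPS cells labelled double knockout Sirt1 rose (+0.45), and Nop53 (-0.31) and Rpl11, a ribosomal protein that binds MDM2 (-0.42), fell, beside 8.77% of all genes that rose and 7.51% that fell.

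A further 40 p53 targets, all tested, moved in both directions. In Lin28a-null ES cells 10 rose and 8 fell, beside 20.4% and 17.8% of all genes, with a median of 0.08 beside 0.02 over all genes. The largest rises were in the death receptor Fas at 31.7 against 6.41 TPM (+2.16), the cytokine Lif at 59.3 against 16.1 TPM (+1.81) and the antiproliferative gene Btg2 at 266 against 80.3 TPM (+1.80). The largest falls were in the secreted factor Gdf15 at 13.2 against 48.98 TPM (-1.78), the mTOR inhibitor Ddit4 at 70.1 against 198 TPM (-1.47) and the ribonucleotide reductase subunit Rrm2b at 8.35 against 25.7 TPM (-1.37). For labelled Lin28b-null cells 6 rose and 9 fell (beside 13.4% and 15.1% of all genes; median 0.07, beside -0.01): the metabolic phosphatase Tigar (+1.17), the ferredoxin reductase Fdxr (+0.73) and the spindle protein Psrc1 (+0.46) led the rises, and the stress gene Gadd45a (-1.91), Ddit4 (-1.20) and the metalloreductase Steap3 (-0.73) the falls. Under doxycycline 5 rose and 7 fell (beside 13.3% and 5.68%; median -0.02, beside 0.06), among them Rrm2b (+0.62), the ephrin receptor Epha2 (+0.62) and Tigar (+0.42) upward, and Pidd1, which helps to activate caspase 2 (-0.41), Psrc1 (-0.35) and the RNA-binding protein Zmat3 (-0.32) downward. In iPS cells labelled double knockout 6 rose and 5 fell (beside 8.77% and 7.51%; median -0.09, beside 0.04), with the peptide transporter Tap1 (+1.11), Lif (+0.90) and the lysosomal gene Dram1 (+0.79) up, and Gdf15 (-0.94), Ddit4 (-0.56) and the TNF receptor family member Eda2r (-0.56) down.

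The partners of the members in cell death and in the cell cycle were listed apart. Their counts stand beside 20.4% of all genes that rose and 17.8% that fell in Lin28a-null cells, 13.4% and 15.1% in labelled Lin28b-null cells, 13.3% and 5.68% under doxycycline and 8.77% and 7.51% in labelled double knockout cells. In the same order of comparisons the median log2 change was -0.41, -0.10, 0.0013 and -0.13 for the BCL2 family and 0.11, -0.15, 0.02 and 0.03 for the CDK list, beside 0.02, -0.01, 0.06 and 0.04 over all genes. Of the other BCL2 family genes 1 rose and 4 fell among 10 tested in Lin28a-null ES cells: the BH3-only gene Bad rose (+0.64), and its relatives Hrk (-1.24), Bmf (-0.68) and Bid (-0.65) led the falls. Of 11 tested in labelled Lin28b-null cells 2 rose, Bak1 (+0.51), the pore former akin to Bax, and Bid (+0.49), and 3 fell, Bcl2l11 (-1.49), which encodes BIM, and the survival genes Mcl1 (-0.86) and Bcl2l1 (-0.56). Mcl1, the partner of the Pmaip1 product, was at 241 TPM in labelled Lin28b-null and 439 TPM in wild-type ES cells. Under doxycycline 0 of 11 passed in limma, with 1 higher and 1 lower at an unadjusted p under 0.05, and Hrk alone fell among 10 in iPS cells labelled double knockout (-1.14). Of 20 CDK inhibitors and their partners, beside Cdkn1a, 6 rose and 1 fell in Lin28a-null ES cells: cyclin D2 (Ccnd2, +2.51), the inhibitor Cdkn2b (+1.74) and cyclin E2 (Ccne2, +1.10) led the rises, and the inhibitor Cdkn1b fell (-0.81). In labelled Lin28b-null cells 3 rose, Ccnd1 (+1.37), Cdk6 (+0.71) and Ccna2 (+0.39), and 3 fell, the inhibitor Cdkn2c (-1.005), the retinoblastoma gene Rb1 (-0.76) and E2f1 (-0.57), which RB1 restrains. Under doxycycline Ccnd2 (+0.90), Rbl1 (+0.34) and Ccnd1 (+0.31) rose and Ccna2 (-0.21) fell. In iPS cells labelled double knockout Cdk6 (+1.71) and Ccnd1 (+0.52) rose and Rbl2 (-0.66) fell. Of the genes named from these lists, 16 of 20 passed in every alternative in Lin28a-null cells (not Nop53, Atm, Sirt1 and Rrm2b) and 14 of 20 in labelled Lin28b-null cells (not Steap3, Psrc1, Fdxr, Bak1, Cdkn2c and Cdk6). Only 4 of 13 did under doxycycline (Epha2, Tigar, Psrc1 and Zmat3) and 6 of 13 in iPS cells labelled double knockout (Rpl11, Tap1, Gdf15, Eda2r, Hrk and Cdk6).

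The embryo pools, with 1 library each, allowed no test. Cdkn1a was at 829 TPM in the siLin28 pool and 546 TPM in the control pool, a difference of +0.60 in log2(TPM + 1). This is 1.52-fold, and larger in size than that of 73.8% of 9762 genes that averaged 5 TPM or more over both pools. Ccng1 was at 368 TPM in the siLin28 pool and 305 TPM in the control pool, and Perp at 295 TPM and 374 TPM. The differences of all 10 genes lay between -0.34 and +0.60, inside the central 90% of all genes (-0.97 to 1.03), and 0 of 10 reached 1 on this scale, about 2-fold, beside 10% of genes, 5.32% higher and 4.73% lower. Trp53 was at 57.1 TPM in the siLin28 pool and 64.5 TPM in the control pool, Mdm2 at 106.1 TPM and 106.6 TPM, and Pmaip1 at 96.2 TPM and 102 TPM. Phlda3 (176 and 165 TPM), Siva1 (519 and 556 TPM), Bbc3 (18.2 and 21.7 TPM) and Bax (323 and 315 TPM) were likewise close, each given for the siLin28 pool and then the control pool. Perp stood above 95.2% of genes at 1 TPM or more in the siLin28 pool, against 70.4% in Lin28a-null and 49.2% in wild-type ES cells, but embryo cDNA was amplified and levels across tables are only set side by side. The 7 trophectoderm genes summed to 1235 TPM in the siLin28 pool and 1594 TPM in the control pool, and their part in the Perp values was not tested.

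**Figure D5:**
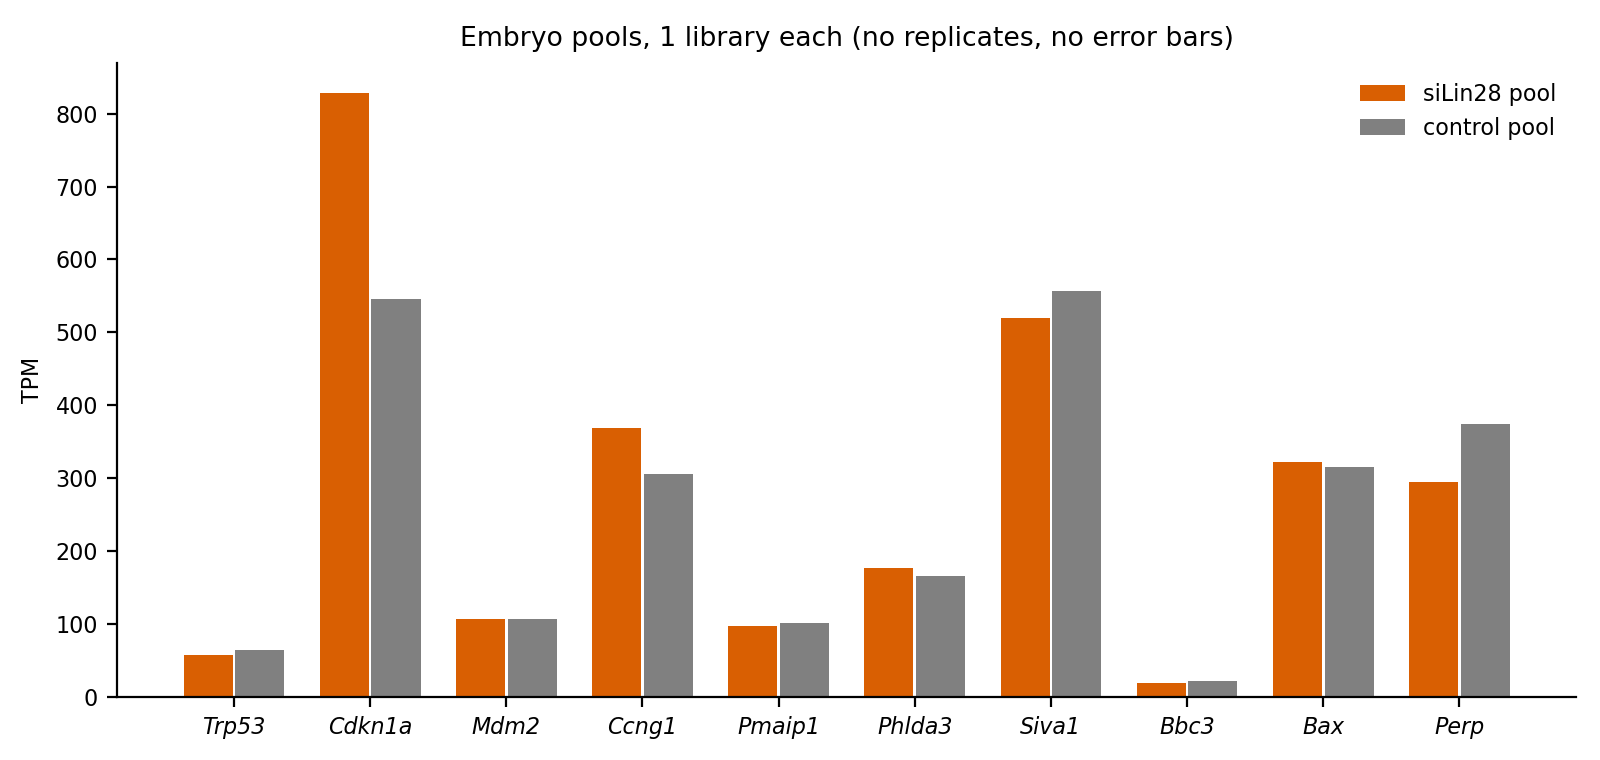
Level in TPM (vertical axis, from 0) of the 10 genes in the siLin28 embryo pool (orange) and the control pool (grey), 1 library each, without error bars. Cdkn1a is at 829 TPM in the siLin28 pool and 546 TPM in the control pool, and no gene reaches a 2-fold difference.

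Of the genes that control p53, Sirt1 stood at 61.4 TPM in the siLin28 pool against 7.72 TPM in the control pool and the ubiquitin ligase Rchy1 at 109 TPM in the siLin28 pool against 36.7 TPM in the control pool, and the kinase Hipk2 was lower, at 2.95 TPM in the siLin28 pool against 8.90 TPM in the control pool. These 3 were the ones of 20 at an average of 5 TPM or more that differed by 1 or more in log2(TPM + 1). Over all 9762 genes at that average, 5.32% were higher by as much and 4.73% lower. These shares also stand beside the counts that follow. Of 33 further targets 3 were higher by as much, the kinase Plk3 (14.7 TPM in the siLin28 pool against 3.58 TPM in the control pool), the DNA polymerase Polk (20.6 TPM in the siLin28 pool against 8.80 TPM in the control pool) and Sesn1 (11.02 TPM in the siLin28 pool against 5.00 TPM in the control pool), and 1 was lower, Tap1 (3.60 TPM in the siLin28 pool against 8.49 TPM in the control pool). The medians of both lists, 0.05 and 0.07, were close to that of all genes, 0.03, and no gene of the BCL2 family (7) or of the CDK list (12) differed by 1 or more in log2(TPM + 1).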

How the data were processed

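The deposited tables give TPM per gene for 21 cell libraries and 2 embryo pools. Per the study's methods and the labels, the authors trimmed reads (Trimmomatic), aligned them to mm10 (HISAT2, CASAVA 1.8 upstream) and removed duplicates (Picard). They kept unique reads and quantified GENCODE genes as TPM with StringTie. Whether strand was used is not given in the sources used here. TPM keeps no depth, so the depth per library is unknown, and no count test or counting interval is given. Here log2(TPM + 1) of the compared groups was fitted with limma 3.58.1 (R 4.3.3; variance trend, two-sided, genes that averaged 1 TPM or more, Benjamini-Hochberg over all tested, threshold 0.05), as the study's own tool needs counts. The code was tested on simulated data. Embryos were compared by difference only. The 10 genes and the lists were chosen with earlier results of these data known. Named from each list were up to 3 risen and 3 fallen genes with the largest change; the 5 genes most like Cdkn1a and Trp53 leave out predicted names. Alternatives were pseudocounts 0.1 and 0.5, no filter or 5 TPM, quantile or median-of-ratios scaling, no trend, all libraries in one fit, a replicate block and leaving out each library. Within the cell groups no library duplicated another, and libraries of different groups were not compared in this way. Positions come from GENCODE M21, in which 53620 of 53715 gene IDs were found. Figures used matplotlib 3.10.9.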

Additional observations from a re-analysis of the deposited data

Results flagged for a closer look

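Effects of 2 contrasts differed for several genes when the difference itself was tested in limma. The doxycycline effect minus the Lin28a-null effect was -0.84 for Cdkn1a, -0.50 for Mdm2, -1.58 for Pmaip1, -1.06 for Phlda3 and -1.23 for Perp, in log2(TPM + 1). The Lin28a-null effect minus the labelled Lin28b-null effect, which equals the direct comparison of these cells, was -0.24 for Trp53, +0.88 for Cdkn1a, +0.29 for Ccng1, +1.11 for Pmaip1 and +1.11 for Perp. In both sets Cdkn1a, Pmaip1 and Perp have their highest level in Lin28a-null ES cells, which also hold the most fibroblast marker RNA among ES groups, and its part was not tested.

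Other effects went in opposite directions with no overlap between libraries, in ES and in iPS cells or in different lines, and these differences were not tested. For Phlda3 the Lin28a-null effect in ES cells lay 0.84 above the labelled double knockout effect in iPS cells, and for Perp 2.13 above it. The labelled Lin28b-null effect lay above the doxycycline effect by 0.47 for Trp53 and by 1.19 for Phlda3, and above the labelled double knockout effect by 0.98 for Phlda3. Among the effects set side by side here, Phlda3 in Lin28a-null cells and Trp53 with doxycycline had not passed (adjusted p = 0.0639 and 0.144 in limma). For Phlda3 the nearest Lin28a-null and wild-type libraries were at 163.5 and 163.3 TPM. Libraries did not overlap for 37.9% to 53.2% of all genes in the 4 comparisons with a control. How many of all genes went in opposite directions in this way was not counted. Groups of 3 libraries are too small for a test of single outlying libraries.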

How the results depend on the processing

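Counts of the 10 genes that passed moved as follows. With all ES libraries in one fit, 6 passed in Lin28a-null against wild-type cells, against 3 in the fit of these groups alone. Mdm2 and Phlda3 were added as rises and Siva1 as a fall. Over all 16060 genes that fit called 3912 higher and 3583 lower, against 3283 and 2854. In labelled Lin28b-null cells 1 passed without the filter on low values, without the variance trend and with a replicate block, against 3 (Pmaip1 and Phlda3 were lost). Over all genes, 1783 were higher and 2046 lower of 28255 without the filter. Of 15526 genes, 1793 and 2179 were so without the trend and 1668 and 1945 with the block, against 2087 and 2347. In control ilet7 against wild-type cells 3 passed without the filter and without the trend, against 5 (Trp53 and Pmaip1 were lost). Over all genes, 1187 were higher and 970 lower of 28780 without the filter. Of 15693 genes, 1324 and 1157 were so without the trend, against 1440 and 1327. With the replicate block 1 passed in iPS cells labelled double knockout, against 3. Over all 17557 genes, 1047 were higher and 876 lower with it, against 1540 and 1318. The labels' replicate numbers share no stated batch, and same-numbered libraries correlated at r = -0.142 to 0.129 in their deviations, so they were not read as pairs.

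Leaving out 1 library at a time gave 2 to 6 genes in Lin28a-null (6 without wild-type replicate 2), 1 to 3 in labelled Lin28b-null, 3 to 5 in doxycycline-treated and 1 to 3 in labelled double knockout cells, 4 to 6 in Lin28a-null against labelled Lin28b-null, 1 to 5 in control ilet7 against wild-type cells and 4 to 7 for the difference of the doxycycline and Lin28a-null effects. Such fits hold fewer samples, and the cause was not tested further.

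Signs turned only for differences that had not passed. Under doxycycline Perp was -0.0779 after quantile normalization and -0.0039 after median-of-ratios scaling, and in labelled double knockout cells Ccng1 was +0.0242 after quantile normalization. Without 1 library, log2 changes ranged as follows. In Lin28a-null cells Ccng1 ranged from -0.0962 to 0.26 and Bax from -0.19 to 0.00961. In labelled Lin28b-null cells Cdkn1a ranged from -0.0718 to 0.12, Siva1 from -0.19 to 0.0283 and Perp from -0.0746 to 0.58. With doxycycline Perp ranged from -0.0159 to 0.12. In labelled double knockout cells Trp53 ranged from -0.0658 to 0.13, Mdm2 from -0.0412 to 0.41, Ccng1 from -0.13 to 0.0559, Pmaip1 from -0.0499 to 0.000606 and Bbc3 from -0.0956 to 0.21. Between Lin28a-null and labelled Lin28b-null cells Bbc3 ranged from -0.14 to 0.00591, and between control ilet7 and wild-type cells Mdm2 from -0.13 to 0.00946, Ccng1 from -0.11 to 0.24 and Perp from -0.34 to 0.31. The difference of the doxycycline and Lin28a-null effects ranged from -0.33 to 0.0239 for Ccng1.

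Cdkn1a and Pmaip1 in Lin28a-null, Trp53 in labelled Lin28b-null, Mdm2, Phlda3 and Siva1 in doxycycline-treated and Perp in labelled double knockout cells passed under every alternative run. No scaling moved the median of all genes by more than 0.1. The number of genes with their highest cell mean in Lin28a-null cells, 5 of 10, was 4 under either other scaling and 5 without wild-type replicate 2, alternatives chosen after seeing the data. How many of all genes have their highest mean there was not counted. TPM without counts leaves depth unknown, and there were 3 libraries a group.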
